A study of Mus musculus with 18 samples.

Results

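The 9 genes described here encode transcription factors that specify and maintain heart muscle: the GATA factors Gata4 and Gata6, the homeodomain factor Nkx2-5, the T-box factors Tbx5 and Tbx20, the MEF2 factors Mef2a, Mef2c and Mef2d, and the basic helix-loop-helix factor Hand2. They were picked by symbol from a table of 25731 genes, all 9 were in it, and all 9 were among the 15088 genes with enough counts to be tested. The study sequenced RNA from the hearts of 18 mice, a library for each heart, in 3 groups of 6. The IR+Decursin group had ischemia-reperfusion, a block and return of blood flow to heart muscle, and decursin, a plant coumarin; the IR group had ischemia-reperfusion alone, and the SHAM group had sham surgery. All were wild-type (WT) C57BL/6 mice, labelled as adult males, with hearts collected at day 7. The labels do not give the dose of decursin, the part of the heart sampled or whether the scar was included. They name 1 batch per group, so batch and group cannot be told apart.

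As background, these factors bind DNA next to each other at the enhancers of contractile, calcium-handling and natriuretic peptide genes, and several of them bind each other. GATA4, NKX2-5, TBX5 and MEF2C form the core that drives cardiomyocyte genes, TBX20 activates and represses, and HAND2 dimerizes with other helix-loop-helix proteins. In the adult heart GATA4 and the MEF2 factors also take part in the hypertrophic response, through calcineurin, NFAT, CaMKII and MAP kinases. Most of the 9 are not restricted to cardiomyocytes: Gata4, Gata6, Tbx20 and Hand2 are also known from fibroblasts, endocardium or epicardium, and Mef2a, Mef2c and Mef2d from endothelium, smooth muscle and blood cells.

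Libraries held 27525876 to 34974692 counts and 18435 to 20389 genes with counts. Markers of cardiomyocytes summed to between 46853 and 79881 CPM (counts scaled to library size, with TMM factors) in IR+Decursin hearts, between 41259 and 58770 CPM in IR hearts and between 77461 and 89581 CPM in SHAM hearts. None of the 20 was at 0 in any group. IR 3, IR 4 and IR+Decursin 2 held 14072 to 14232 counts of Xist and none of the Y-linked Ddx3y, against the label of males, and calls of the factors and counts of the lists are also given without them. IR+Decursin 6 stood apart too, with 7.54% of its counts from Gm26917, against at most 0.92% in the others, and the lowest TMM factor, 0.831. Without it, and under TMM factors, none of the 9 factors was called for IR+Decursin against IR or against SHAM.

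Per transcript length, Gata4 was the most abundant of the 9, and Tbx5 and Mef2c the least. On the deposited FPKM scale (fragments scaled by transcript length and library size), Gata4 averaged 22.7 ± 5.21 FPKM in IR+Decursin hearts, 20.6 ± 2.90 FPKM in IR hearts and 19.1 ± 2.44 FPKM in SHAM hearts (SD, n = 6 each). Nkx2-5, Hand2, Mef2a, Mef2d, Tbx20 and Gata6 followed in SHAM hearts, with means between 17.3 and 10.4 FPKM, and each overlapped its neighbour in that order. Tbx5 was apart below them, with 2.84 ± 0.69 FPKM in IR+Decursin hearts, 2.74 ± 0.59 FPKM in IR hearts and 2.47 ± 0.33 FPKM in SHAM hearts. Mef2c was lower still, with 1.26 ± 0.17 FPKM in IR+Decursin hearts, 1.21 ± 0.17 FPKM in IR hearts and 1.24 ± 0.12 FPKM in SHAM hearts.

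This order rests on the lengths used for the FPKM, most of all for Mef2c. Counts and FPKM together gave a length of 56353 bp for Mef2c, 3.59 times the 15715 bp of its merged exons in GENCODE M21. For the other 8 factors this ratio lay between 0.51 and 1.26. At the GENCODE length, Mef2c came to 4.53 FPKM in IR+Decursin hearts, 4.35 FPKM in IR hearts and 4.46 FPKM in SHAM hearts, above Tbx5 at 3.42, 3.30 and 2.97 FPKM in the same groups. The same lengths took SHAM hearts from 10.4 to 5.27 FPKM for Gata6 and from 10.6 to 6.10 FPKM for Tbx20, and placed Mef2d, at 17.2 FPKM, just above Nkx2-5, at 17.0 FPKM. The length cancels in every comparison of 1 gene between groups, and these were made on counts.

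In IR hearts, 2 of the 9 factors fell against SHAM hearts, Mef2c and Mef2d, and none rose, with libraries scaled by TMM factors. Scaled to cardiomyocyte markers, all 9 rose, as did 75.4% of all genes. The test was edgeR's quasi-likelihood test with p-values adjusted over all 15088 genes (Benjamini-Hochberg, called at 0.05). Under TMM factors, 21.7% of all genes fell and 25.3% rose in this comparison (46.9% called), so 2 of 9 is near the background for a fall. The 9 differences ran between -0.34 and 0.16 on the log2 scale with a median of -0.20. Their median size was 0.20, against 0.32 over all genes tested. The IR and SHAM ranges overlapped for all 9, while 26.9% of all genes had groups that did not overlap. They also overlapped for all 9 in IR+Decursin against IR (0.517% of all genes did not) and in IR+Decursin against SHAM (7.34% did not). In bulk tissue, fewer cells of a type and less RNA per cell cannot be told apart.

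**Figure D1:**
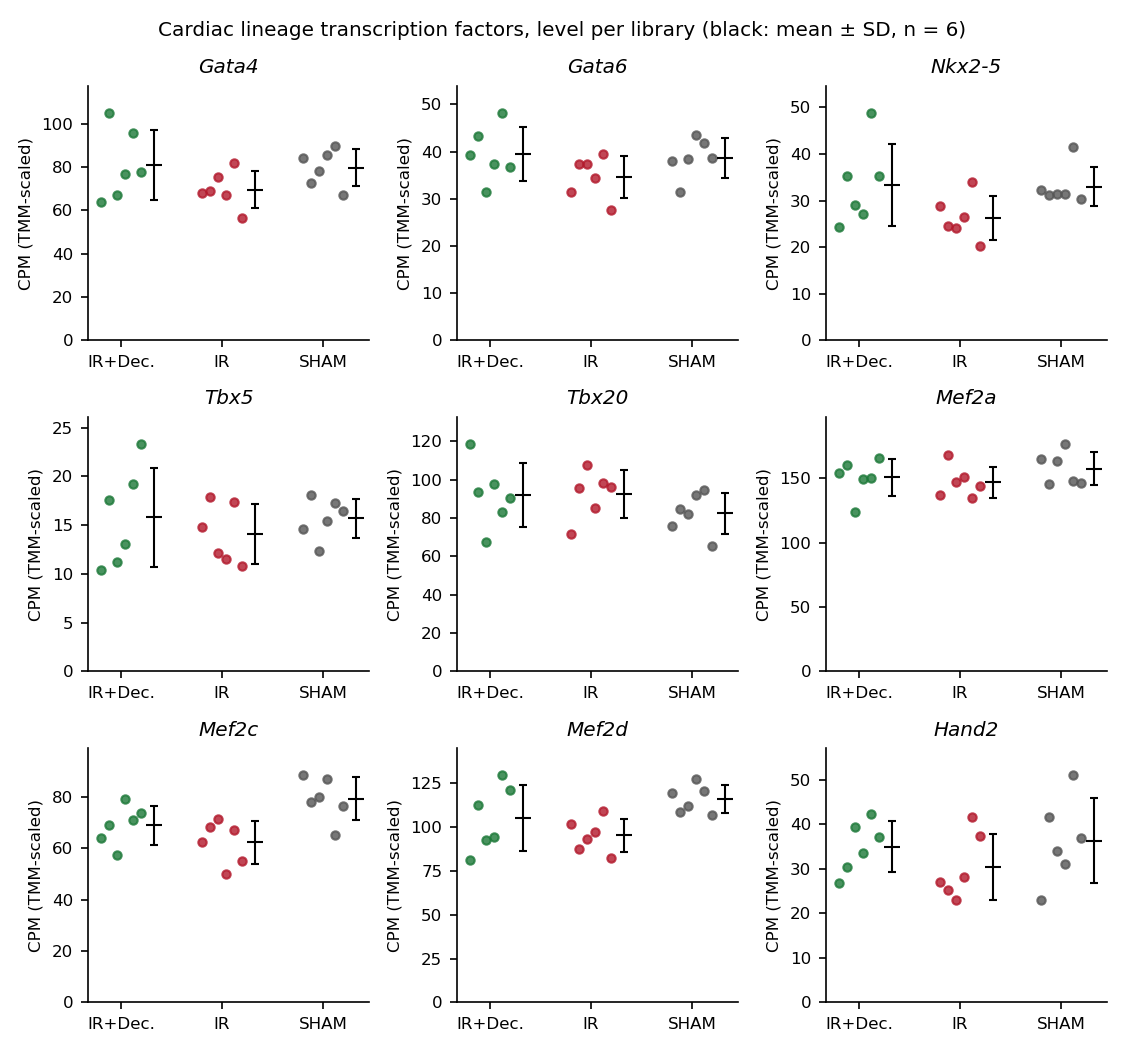
Level of each of the 9 factors in every library, in CPM scaled by TMM factors (vertical axes start at 0), with IR+Decursin, IR and SHAM hearts from left to right; points are single hearts and black marks are the mean ± SD of 6. The groups overlap for every factor. Mef2c and Mef2d fell in IR hearts against SHAM hearts on this scale, and rose under cardiomyocyte marker scaling, as did 75.4% of all genes.

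The MEF2 factors are MADS-box proteins whose activity is set by kinases and class II histone deacetylases. Mef2c had a lowest, median and highest level of 57.4, 69.9 and 79.2 CPM in IR+Decursin hearts, of 49.98, 64.7 and 71.6 CPM in IR hearts, and of 65.2, 79.1 and 88.4 CPM in SHAM hearts. Of the 6 IR hearts, 3 lay below the lowest SHAM heart and none lay above the highest. The log2 difference of IR against SHAM was -0.34 ± 0.10 (SE), with an adjusted p of 0.0063 in edgeR, a level 21.3% lower in IR hearts. It passed the threshold on leaving out each of the 18 libraries in turn, with values between -0.40 and -0.29.

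Mef2d had a lowest, median and highest level of 81.2, 104 and 129 CPM in IR+Decursin hearts, of 82.4, 94.9 and 109 CPM in IR hearts, and of 107, 115 and 128 CPM in SHAM hearts. Only 1 IR heart reached the SHAM range, and the other 5 lay below it. The log2 difference of IR against SHAM was -0.28 ± 0.10, with an adjusted p of 0.026 in edgeR, a level 17.8% lower in IR hearts. The call was lost without SHAM 4, IR 2 or IR 6, with an adjusted p of up to 0.064 in edgeR, while the difference stayed between -0.33 and -0.25 over all 18 leave-outs. Without the 3 libraries with Xist, Mef2d was at -0.28 with an adjusted p of 0.078 in edgeR, and Mef2c, at -0.33 with an adjusted p of 0.019, was the factor still called. Fewer genes were called in that fit too: 3195 rose and 2582 fell of 15239 tested, against 3810 and 3269 of 15088 with all libraries.

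Mef2a, the MEF2 gene with the most counts here, had a lowest, median and highest level of 124, 152 and 166 CPM in IR+Decursin hearts, of 135, 146 and 168 CPM in IR hearts, and of 146, 156 and 176 CPM in SHAM hearts. Its IR against SHAM difference of -0.10 ± 0.08 (log2) was within the spread between hearts, with an adjusted p of 0.32 in edgeR. The balance between family members was tested within each library as a log2 ratio of FPKM. Mef2c over Mef2a was -3.72 ± 0.23 in IR hearts and -3.47 ± 0.11 in SHAM hearts (SD, n = 6 each), a difference of -0.25 with p = 0.035 in a two-sided exact permutation test. Over the 12 ratio tests made, the adjusted p was 0.32 (exact permutation), so no ratio passed the correction. The fourth family member, Mef2b, was too low to test, with 1 count in all IR+Decursin hearts, 1 in all IR hearts and 3 in all SHAM hearts.

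The bases before the start sites of Mef2c, Mef2d and Tbx20 are shown because the first 2 were called in IR hearts and the third differed in the other direction. They are the 250 bases upstream of the RefSeq start on GRCm38.p6, for Mef2c of the first of its 3 listed starts, at chr13:83503784-83504033 (+ strand), chr3:88142122-88142371 (+ strand) and chr9:24774304-24774553 (- strand), written 5′ to 3′ along the gene. Capitals mark a match to AAGTG.
Mef2c: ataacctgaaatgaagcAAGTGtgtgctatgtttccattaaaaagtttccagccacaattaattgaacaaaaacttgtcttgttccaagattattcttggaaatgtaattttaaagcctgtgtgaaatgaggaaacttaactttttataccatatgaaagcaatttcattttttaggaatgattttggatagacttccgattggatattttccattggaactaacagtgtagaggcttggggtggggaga
Mef2d: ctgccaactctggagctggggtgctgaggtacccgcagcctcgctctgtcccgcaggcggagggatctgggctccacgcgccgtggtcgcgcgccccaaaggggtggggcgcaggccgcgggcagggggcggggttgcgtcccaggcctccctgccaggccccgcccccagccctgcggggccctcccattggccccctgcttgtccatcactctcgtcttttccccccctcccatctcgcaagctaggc
Tbx20: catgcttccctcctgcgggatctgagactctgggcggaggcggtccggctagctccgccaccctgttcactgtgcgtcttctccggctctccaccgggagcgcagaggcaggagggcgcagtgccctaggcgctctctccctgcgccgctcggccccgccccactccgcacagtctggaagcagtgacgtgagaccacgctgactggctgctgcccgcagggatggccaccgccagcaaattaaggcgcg
The windows differed in base composition. The first Mef2c window held 33.6% G and C and 1 CpG, the Mef2d window 73.2% and 19 CpG, and the Tbx20 window 68.8% and 22 CpG. The other 2 Mef2c windows held 44.8% and 49.6% G and C with 6 and 4 CpG. The median over all 32851 RefSeq windows of this length was 52.4% G and C.

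These windows were searched on both strands for short elements of each factor family. The GATA element GATAAG was in 6.55% of all 32851 windows and the NK2 homeodomain element AAGTG in 40.7%. The T-box element AGGTGT was in 11.8% of them and CATCTG, the element of HAND dimers, in 14.4%. The MEF2 element, CTA and TAG with 4 bases between, was in 3.20%, and a loose SRF element, CC and GG with 6 bases between, was in 67.1%. The loose SRF element can overlap any of the others. The first Mef2c window held 1 AAGTG, 233 to 229 bases before the start. The second held 1 CACTT, the reverse complement of AAGTG, and 1 AGGTGT, and the third 1 AAGTG and 1 CAGATG, the reverse complement of CATCTG. The Mef2d and Tbx20 windows held none of these other than the loose SRF element. The Hand2 window held 1 CATCTG and 1 CACTT. No window of the 9 factors in the table held the GATA or the MEF2 element. A match is a run of letters and not a shown binding site. The RefSeq table matched 6 of the 9 factors (Mef2a, Mef2c, Mef2d, Hand2, Tbx20 and Nkx2-5) and not Gata4, Gata6 or Tbx5.

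Nkx2-5, the homeodomain factor that partners GATA4, had a difference about as large as that of Mef2c and was not called. Its lowest, median and highest levels were 24.3, 32.2 and 48.7 CPM in IR+Decursin hearts, 20.3, 25.5 and 34.0 CPM in IR hearts, and 30.4, 31.3 and 41.5 CPM in SHAM hearts. In all but 1 of the IR hearts it lay below the lowest SHAM heart. The log2 difference of IR against SHAM was -0.33 ± 0.15, with an adjusted p of 0.074 in edgeR, and did not pass. It passed with only IR and SHAM hearts in the fit, with an adjusted p of 0.025 in edgeR, and in limma voom with quality weights, with an adjusted p of 0.041. Without IR 5 or without IR+Decursin 5 it passed, with an adjusted p down to 0.026 in edgeR. Without SHAM 5, the highest SHAM heart, the difference was -0.25 with an adjusted p of 0.18 in edgeR.

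The GATA zinc finger factors moved little. Gata4, which drives natriuretic peptide and contractile genes, had a lowest, median and highest level of 64.1, 77.2 and 105 CPM in IR+Decursin hearts, of 56.3, 68.4 and 81.7 CPM in IR hearts, and of 67.2, 81.1 and 89.8 CPM in SHAM hearts. The IR against SHAM difference was -0.20 ± 0.12 (log2), with an adjusted p of 0.17 in edgeR. Gata6, its close relative in the same cells, had 31.5, 38.4 and 48.1 CPM in IR+Decursin hearts, 27.6, 35.8 and 39.5 CPM in IR hearts, and 31.4, 38.5 and 43.5 CPM in SHAM hearts, again as lowest, median and highest. Its difference was -0.16 ± 0.10 (log2), with an adjusted p of 0.22 in edgeR. The ratio of Gata6 to Gata4 differed by 0.04 (log2) between IR and SHAM hearts, within a spread of 0.08 in IR hearts and 0.15 in SHAM hearts (SD, n = 6 each; exact permutation p = 0.60). Gata6 and Gata4 were also the closest pair of the 9 across the 18 libraries, with a root mean square distance of 0.13 log2 units between their centred levels. Gata5 had 55, 36 and 28 counts in all in the IR+Decursin, IR and SHAM hearts and was too low to test.

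The T-box factors differed in direction under TMM factors, without a call. Tbx20, which is required for adult cardiomyocyte function, had a lowest, median and highest level of 67.7, 92.0 and 118 CPM in IR+Decursin hearts, of 71.4, 95.9 and 107 CPM in IR hearts, and of 65.3, 83.2 and 94.6 CPM in SHAM hearts. It had the 1 positive difference of the 9, with 4 of 6 IR hearts above the highest SHAM heart. That difference was 0.16 ± 0.12 (log2), with an adjusted p of 0.27 in edgeR; Tbx20 rose under total-count scaling, by 0.47 with an adjusted p of 0.011, and under cardiomyocyte marker scaling. Tbx5, a factor of the atria, left ventricle and conduction system, had 10.4, 15.3 and 23.3 CPM in IR+Decursin hearts, 10.8, 13.5 and 17.9 CPM in IR hearts, and 12.4, 15.9 and 18.1 CPM in SHAM hearts. Its IR against SHAM difference was -0.16 ± 0.18 (log2), with an adjusted p of 0.50 in edgeR, and was 0.15 under total-count scaling, not called, and 0.50 under cardiomyocyte marker scaling, where it rose. The Tbx5 to Tbx20 ratio was -2.44 ± 0.38 in IR hearts and -2.10 ± 0.26 in SHAM hearts (SD, n = 6 each), which did not pass (exact permutation p = 0.11, adjusted p = 0.32).

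Tbx5 was also set beside atrial genes, which were picked for this look after their values had been seen, so no test is given. Myl7, the atrial myosin light chain gene, had 105 to 6459 counts in IR+Decursin hearts, 69 to 6981 counts in IR hearts and 518 to 1614 counts in SHAM hearts. The atrial genes Sln and Myl4 had their top values in the same 2 hearts as Myl7, IR+Decursin 6 and IR 2. Under TMM factors these hearts had the highest Tbx5 of their groups, at 23.3 and 17.9 CPM. Scaled to total counts, IR+Decursin 6 was at 19.4 CPM, below IR+Decursin 5 at 19.8 CPM, which had the lowest Myl7 of its group, at 105 counts. Of the total of IR+Decursin 6, 7.54% came from Gm26917, against 0.0883% in IR+Decursin 5, which lowers its other genes on that scale. The order of these 2 hearts without that gene was not tested. IR+Decursin 1, second in Myl7 with 1328 counts, had the lowest Tbx5 of its group under TMM factors, at 10.4 CPM. Without IR+Decursin 6 and IR 2, the Tbx5 difference was -0.24 for IR against SHAM, with an adjusted p of 0.24 in edgeR, and -0.13 for IR+Decursin against SHAM, with an adjusted p of 0.56 in edgeR.

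**Figure D2:**
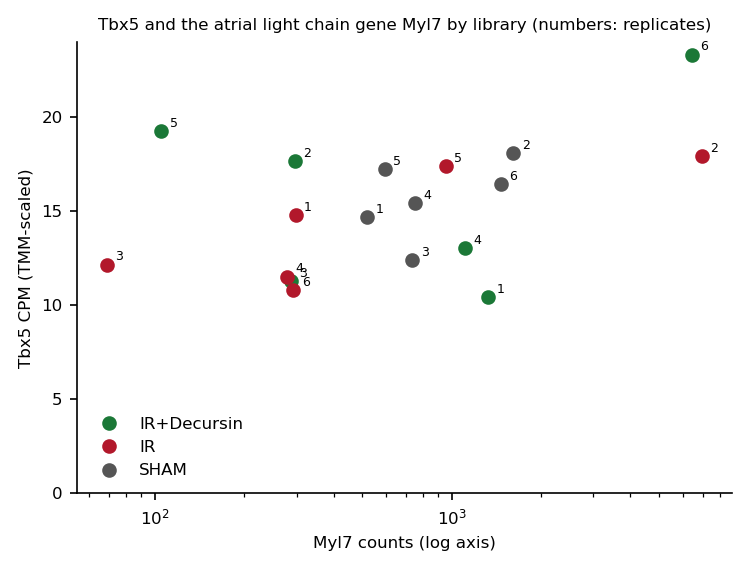
Tbx5 level (vertical axis, CPM scaled by TMM factors) against counts of the atrial light chain gene Myl7 (horizontal axis, log scale), 1 point per heart, coloured by group and numbered by replicate. IR+Decursin 6 and IR 2 stand apart with 6459 and 6981 Myl7 counts, and have the highest Tbx5 of their groups under TMM factors, while IR+Decursin 1, with 1328 Myl7 counts, has the lowest of its group.

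Hand2, known from the second heart field and the right ventricle, spread the most within the SHAM group relative to its mean. It had a lowest, median and highest level of 26.9, 35.3 and 42.4 CPM in IR+Decursin hearts, of 23.1, 27.6 and 41.7 CPM in IR hearts, and of 23.0, 35.5 and 51.0 CPM in SHAM hearts. No IR heart lay outside the SHAM range. The IR against SHAM difference was -0.25 ± 0.17 (log2), with an adjusted p of 0.24 in edgeR. Hand2 and Gata6 each have a neighbour on the opposite strand. Hand2os1 had medians of 1038, 1137 and 1076 counts in IR+Decursin, IR and SHAM hearts, and Gata6os of 253, 286 and 267 counts. No source used here gives the strand setting of the counting, so reads of these pairs cannot be told apart. The related Hand1 and Isl1 were too low to test, with at most 2 and 4 counts summed over any group.

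With all 18 libraries in the fit, decursin was not followed by a called difference in any of the 9 factors. For IR+Decursin against IR, edgeR called 0 of 9 factors and 0 of all 15088 genes (0%), with 1 factor and 2712 genes at an unadjusted p under 0.05. DESeq2 called 0 of the 9 and 470 of all genes. The factor under the unadjusted threshold was Nkx2-5, with a log2 difference of 0.34 ± 0.15 and an adjusted p of 0.24 in edgeR. It had 3 of 6 IR+Decursin hearts above the highest IR heart. The other differences ran between -0.01 for Tbx20 and 0.22 for Gata4 under TMM factors, with a median of 0.16 over the 9. Under cardiomyocyte marker scaling the median was -0.11 and Nkx2-5, at 0.06, was the one above 0, with none called over all 18 libraries. Cell markers also differed without a call: under TMM factors the median was 0.29 for the 20 cardiomyocyte markers, all of them positive, and -0.65 for the 12 macrophage markers, all of them negative. The part of these cells in the differences of the factors was not tested. The 95% intervals under TMM factors ran between -0.13 and 0.20 for Mef2a and between -0.22 and 0.55 for Tbx5, on the log2 scale. They ran between -0.17 and 0.57 for Hand2 and between 0.03 and 0.65 for Nkx2-5, which reached highest. These intervals hold for that scaling only: under cardiomyocyte marker scaling Mef2a was at -0.24, outside its interval.

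For IR+Decursin against SHAM, 0 of the 9 factors were called in edgeR and 0 in DESeq2, with 0 at an unadjusted p under 0.05, while 29.3% of all genes were called in edgeR. The differences ran between -0.20 for Mef2c and 0.16 for Tbx20, with a median of 0.01. The 3 comparisons share hearts in pairs, so their values are given side by side and not as support for each other. Mef2c was at -0.20 ± 0.10 with an adjusted p of 0.13 in edgeR, and Mef2d at -0.14 ± 0.10 with an adjusted p of 0.32. Gata4, Gata6, Nkx2-5 and Tbx5 lay between 0.01 and 0.03.

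**Figure D3:**
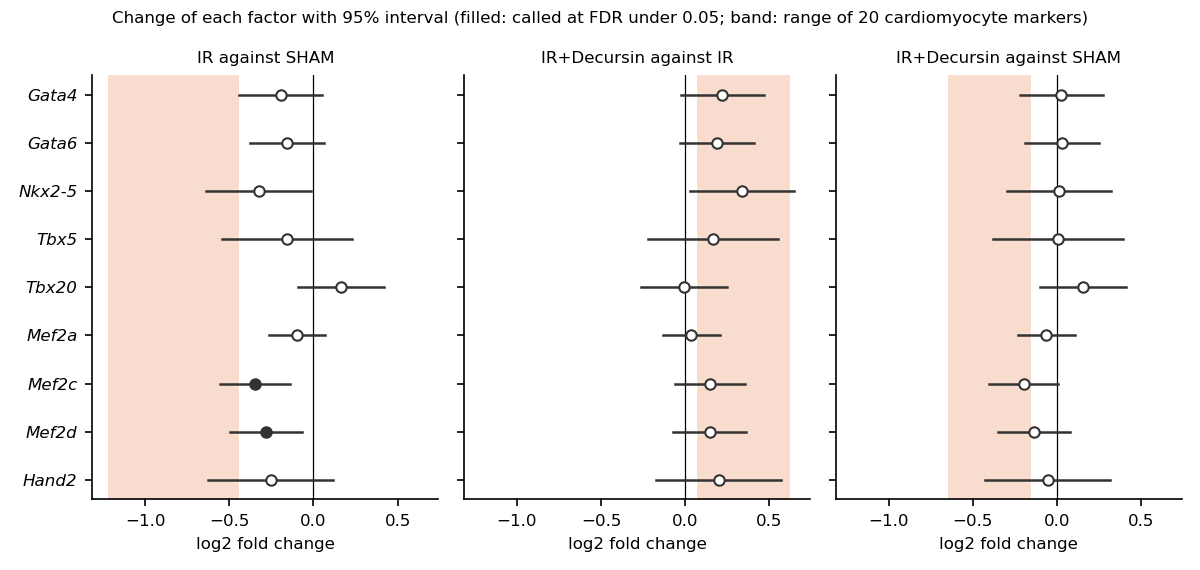
Log2 fold change of each factor (points) with its 95% interval (lines) for IR against SHAM, IR+Decursin against IR and IR+Decursin against SHAM, from edgeR. Filled points were called and the band is the range of 20 cardiomyocyte markers, all under TMM factors. Under cardiomyocyte marker scaling all 9 factors rose for IR against SHAM, as did 75.4% of all genes. For IR against SHAM the factors lie between -0.34 and 0.16, right of the band, which spans -1.22 to -0.44.

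The 20 cardiomyocyte markers differed more than the 9 factors under TMM factors. All 20 cardiomyocyte markers fell in IR hearts, with log2 differences of -1.22 to -0.44 and a median of -0.62, and the 9 factors all lay above that range. Macrophage markers rose in 12 of 12 cases, with a summed level of 663 to 1897 CPM in IR+Decursin hearts, 1455 to 3000.2 CPM in IR hearts and 478 to 653 CPM in SHAM hearts. Fibroblast markers rose in 13 of 14 cases and 1 fell, with summed levels of 3265 to 14264 CPM in IR+Decursin hearts, 10419 to 14813 CPM in IR hearts and 2683 to 3352 CPM in SHAM hearts. Epicardial markers rose in 7 of 8 cases, endothelial ones in 1 of 12 with 2 falling, and none of the mural ones rose while 5 of 12 fell. Of endocardial markers 3 of 6 rose and 2 fell, of lymphocyte markers 6 of 8 rose, of Schwann cell markers 0 of 6 were called, and both tested skeletal muscle markers fell. The endothelial and endocardial lists share a gene. Lymphocyte markers were low, with summed levels of 5.39 to 14.5 CPM in IR hearts and 1.75 to 2.68 CPM in SHAM hearts. Under cardiomyocyte marker scaling, 12 of 12 endothelial and 9 of 12 mural markers rose, beside 75.4% of all genes. The 20 cardiomyocyte markers set that scaling, so their median log2 difference there is near 0 by construction, at 0.04. Of them, 2 rose and 5 fell. Without the libraries with Xist, 18 of 20 cardiomyocyte markers fell and none rose, and 12 of 12 macrophage, 13 of 14 fibroblast and 7 of 8 epicardial markers rose. Of all 15239 genes tested there, 3195 rose and 2582 fell. No macrophage, fibroblast or epicardial marker was at 0 in any group, and the part of these cells in the levels of the 9 factors was not tested.

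For IR against SHAM, the direction of the 9 factors depended on what the libraries were scaled to. Under TMM factors the median log2 difference of all genes was -0.00 for IR against SHAM. It was 0.31 when libraries were scaled to their total counts and 0.67 when they were scaled to the 20 cardiomyocyte markers. Under total-count scaling 1 factor was called, Tbx20, which rose by 0.47 while 46.5% of all genes rose. There Mef2c was at -0.04 and Mef2d at 0.02, with adjusted p of 0.79 and 0.86 in edgeR. Under cardiomyocyte marker scaling, all 9 factors rose in IR hearts, by 0.32 for Mef2c to 0.84 for Tbx20, as did 75.4% of all genes. Mef2c was thus called lower under TMM factors and higher under cardiomyocyte marker scaling, and Mef2d likewise. A scaling moves all genes by nearly the same amount, so by construction each factor's distance from the median of all genes hardly depends on it. For IR against SHAM that distance was -0.34, -0.34 and -0.35 for Mef2c under TMM, total-count and cardiomyocyte marker scaling. For Tbx20 it was 0.17, 0.17 and 0.16 in the same order.

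On the cardiomyocyte marker scale, Tbx20 averaged 116 CPM in IR hearts and 64.8 CPM in SHAM hearts, with all 6 IR hearts above the highest SHAM heart and an adjusted p of 0.00037 in edgeR. The same held for all 6 IR hearts of Gata4, Tbx5, Mef2a and Mef2d, where 54.4% of all genes did the same. Calls of Nkx2-5 and Hand2 on this scale were lost on leaving out 6 and 11 of the 18 libraries in turn, and the other 7 held in all 18. For IR+Decursin against SHAM, 7 of 9 factors rose on this scale, against 50.8% of all genes. Gata4, Gata6 and Tbx20 were called in all 18 leave-outs, Nkx2-5 in 16, Mef2a in 12, Mef2d in 11 and Tbx5 in 10. Hand2, not among the 7, was called in 1 of them. For IR+Decursin against IR, 0 of 9 were called over all 18 libraries. Without IR+Decursin 1, Tbx20 and Mef2a fell in that comparison, with adjusted p of 0.026 and 0.030 in edgeR. Neither was called in any other of the 18 leave-outs. The share of all genes called in that fit was not computed. Under TMM factors, leaving out IR+Decursin 1 took the calls over all genes from 0 to 976. The spread of the IR+Decursin hearts on this scale was wide: relative to TMM, the marker level was 0.00 (log2) in IR+Decursin 6, as in SHAM hearts, and -0.75 in IR+Decursin 1.

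**Figure D4:**
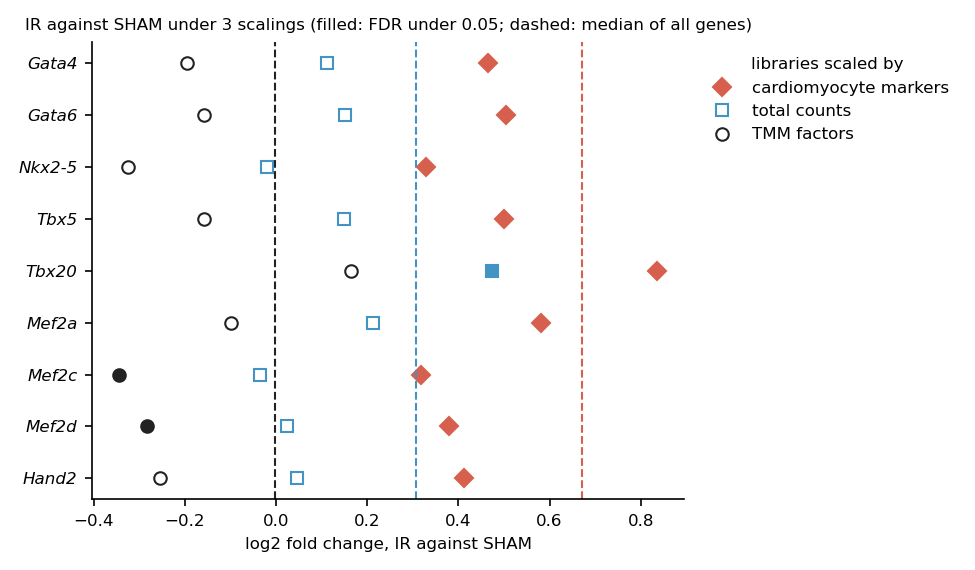
Log2 fold change of each factor for IR against SHAM (horizontal axis) with libraries scaled by cardiomyocyte markers, total counts or TMM factors; filled symbols were called in edgeR and dashed lines are the median of all genes under the same scaling. By construction all symbols shift with the median (0.67, 0.31 and -0.00), and Tbx20 is the factor to the right of the median under each.

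Other cardiac transcription factors changed more than the 9 in single cases. Of 22 listed, 16 were tested, and for IR against SHAM 2 rose and 4 fell under TMM factors, with 6 rising and 0 falling under total-count scaling and 11 and 0 under cardiomyocyte marker scaling. In this and the following lists, counts under those scalings stand beside 46.5% and 75.4% of all genes rising, and 7% and 1.33% falling. Without the libraries with Xist, 17 were tested, 4 rose and 4 fell, beside 3195 rising and 2582 falling of all 15239 genes tested there. Tbx18, a factor of the epicardium and sinus node, had 6.28 ± 0.81 CPM in IR hearts and 3.83 ± 0.55 CPM in SHAM hearts (SD, n = 6 each) and rose by 0.71 (log2), with an adjusted p of 0.0029 in edgeR. Shox2, a factor of the sinus node, rose by 1.09 (log2) to 0.88 ± 0.23 CPM in IR hearts, against 0.41 ± 0.16 CPM in SHAM hearts. Both also rose under the other 2 scalings. Tead1, which binds muscle promoters with YAP, averaged 90.2 ± 13.0 CPM in IR hearts and 134 ± 23.0 CPM in SHAM hearts, a difference of -0.57 (log2) with an adjusted p of 0.00084 in edgeR that was called under neither of the other scalings. Tbx2, a repressor of the atrioventricular canal, fell by 0.50 (log2), also under TMM factors alone.

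Among 20 partners and cofactors, 6 rose and 3 fell in IR hearts under TMM factors, 10 rose and 1 fell under total-count scaling, and 18 rose and 0 fell under cardiomyocyte marker scaling. Mrtfa, a coactivator of SRF, had 12.1 ± 1.08 CPM in IR hearts and 6.94 ± 0.60 CPM in SHAM hearts, and rose by 0.80 (log2). Nfatc4 rose by 1.10 and Nfatc1 by 0.58 (log2), the targets of calcineurin that bind beside GATA4, and all 3 rose under each of the 3 scalings. Smyd1, a muscle histone methyltransferase gene known as a MEF2C target, averaged 387 ± 25.7 CPM in IR hearts and 626 ± 33.1 CPM in SHAM hearts. It fell by 0.70 (log2), also under total-count scaling, and was at -0.03 under cardiomyocyte marker scaling with an adjusted p of 0.74 in edgeR.

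Of 17 genes that signal to these factors, 1 rose and 8 fell in IR hearts under TMM factors, 5 rose and 3 fell under total-count scaling, and 13 rose and 2 fell under cardiomyocyte marker scaling. The gene that rose was Mapk7, which encodes ERK5, a kinase of MEF2 proteins: it had 9.59 ± 1.14 CPM in IR hearts and 5.04 ± 0.73 CPM in SHAM hearts, a rise of 0.93 (log2) that was called under each scaling. Camk2d, the main cardiac CaMKII gene, fell by 0.53 (log2) and Ppp3cb, a calcineurin subunit gene, fell by 0.39. Camk2d was at 0.14 and not called under cardiomyocyte marker scaling, and Ppp3cb was called higher there, at 0.28. Myoz2, a sarcomeric inhibitor of calcineurin that is also among the cardiomyocyte markers, fell by 0.98 (log2) and by 0.33 under cardiomyocyte marker scaling.

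Of 27 tested target genes of these factors, 3 rose and 14 fell in IR hearts under TMM factors, with a median of -0.32; 7 rose and 10 fell under total-count scaling, and 13 rose and 2 fell under cardiomyocyte marker scaling. Of the 28 listed, 7 are also cardiomyocyte markers, Ckm and Pln among them. These 7 help to set the cardiomyocyte marker scaling, so their values on it are not independent of it. Ckm, the muscle creatine kinase gene, averaged 1088 ± 340 CPM in IR hearts and 2536 ± 288 CPM in SHAM hearts and fell by 1.22 (log2), with an adjusted p of 5.5e-05 in edgeR; it fell under each scaling. Tnnc1, cardiac troponin C, fell by 0.81 and Pln, phospholamban, fell by 0.50 (log2), and both fell under total-count scaling and were not called under cardiomyocyte marker scaling. Myh7, the slow myosin heavy chain gene, rose by 3.71 (log2) to 1554 ± 1189 CPM in IR hearts, against 118 ± 28.9 CPM in SHAM hearts, and rose under each scaling. In IR+Decursin hearts Myh7 averaged 365 ± 261 CPM, with a difference of -2.09 against IR and an adjusted p of 0.098 in edgeR. Bmp10, with 6, 14 and 0 counts in all in the IR+Decursin, IR and SHAM hearts, was too low to test. No gene of these 4 lists was called for IR+Decursin against IR. Without the libraries with Xist, 4 partners rose and 3 fell, 1 signalling gene rose and 8 fell, and 2 target genes rose and 13 fell in IR hearts. Of all 15239 genes in that fit, 3195 rose and 2582 fell. Each gene named with a call from these lists under TMM factors kept its direction and its call there, with Myh7 at 4.03 and Mapk7 at 0.83 (log2).

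**Figure D5:**
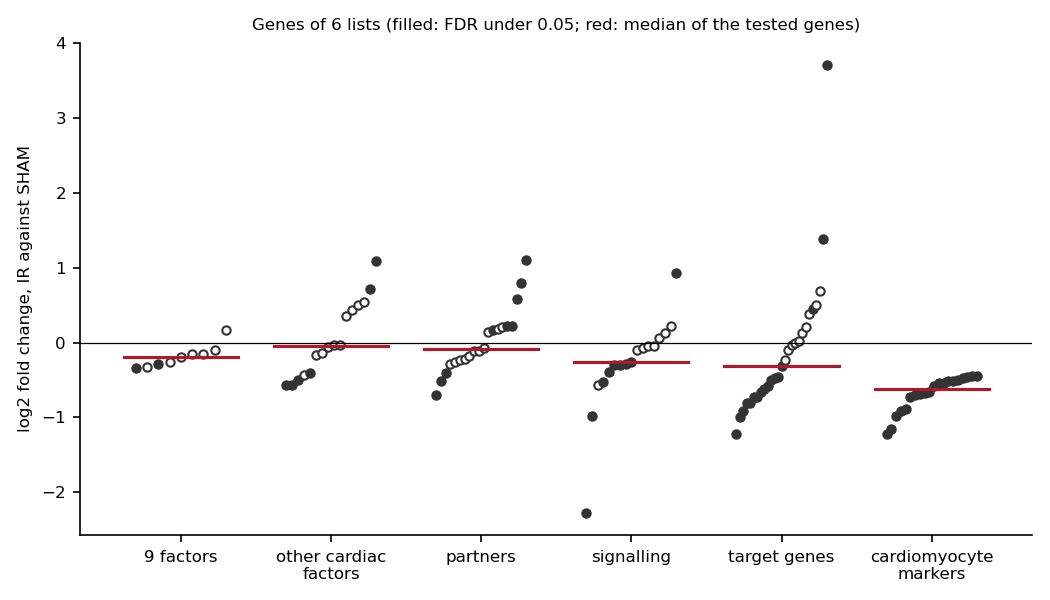
Log2 fold change for IR against SHAM (vertical axis, TMM factors) of the tested genes of 6 lists, 1 point per gene, filled where called in edgeR, with the list median in red. The 9 factors lie between -0.34 and 0.16, the target genes span -1.22 to 3.71, and the cardiomyocyte markers lie between -1.22 and -0.44.

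The genes with the most similar profile to each factor were found by the root mean square distance between centred log2(CPM + 1) levels over the 18 libraries, among 11627 genes with a mean of at least 2 CPM. Mef2d was nearest to Dcaf8, at 0.071, followed by Afg3l1 and Rnf167, against a median of 0.27 over all these genes. Nkx2-5 was nearest to Tmcc2 at 0.094, Map7d1 and Klc2. Mef2c was nearest to Kitl at 0.11, Nrp1 and Epm2aip1, and Kitl itself differed by -0.43 (log2) between IR and SHAM hearts. Gata4 was nearest to St6galnac6 at 0.091, Gata6 to Cxxc5 at 0.12 and Mef2a to Asxl2 at 0.083. Tbx20 was nearest to Cilk1 at 0.12. Hand2 and Tbx5 had the most distant nearest genes, Pacs2 at 0.18 and Peg13 at 0.14. None of these nearest genes was one of the other 8 factors.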

How the data were processed

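The authors deposited raw read counts and FPKM per gene symbol for 18 hearts, 6 per group. Per the submitters' processing notes, fastp, HISAT2, HTSeq and the build GRCm39 were used; no source used here gives versions, annotation or strand setting. Libraries held 27525876 to 34974692 counts. Genes were filtered with filterByExpr (15088 of 25731 kept), scaled by TMM factors and tested over all 18 libraries with edgeR 4.0.16 (R 4.3.3), quasi-likelihood, two-sided, adjusted by Benjamini-Hochberg over all genes and called under 0.05. SE is the log2 fold change over the square root of F; 95% intervals use 15 residual degrees of freedom. Ratios used FPKM + 0.01 and exact permutation over 924 splits, with 0.0022 the smallest p possible, adjusted over 12 tests. DESeq2 1.42.0, limma 3.58.1, other scalings and left-out libraries were alternatives. The scaling by cardiomyocyte markers was repeated with other markers and samples, and the libraries with over 5000 Myl7 counts were left out, as choices made after seeing the data. The tests were checked on simulated data. Libraries are separate animals, per the labels.

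Members and lists were chosen with earlier results of these data known. Named were the 9 factors, the 4 tested genes of smallest adjusted p in IR against SHAM in each of the 4 related lists, listed genes too low to test, nearest genes, Xist and Ddx3y. Of the marker lists only counts and ranges are given. Promoter sequences are from RefSeq, GRCm38.p6; exon lengths are from GENCODE M21.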

Additional observations from a re-analysis of the deposited data

Results flagged for a closer look

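Nkx2-5 in SHAM hearts was flagged because SHAM 5, at 41.5 CPM, stood apart from the other 5. Its gap to the next heart was 0.83 of the whole range of the group, above Dixon's value of 0.625 for 6 samples. Of 39 groups checked, 1 was flagged, and chance flags about 1 in 20.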

How the results depend on the processing

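For IR against SHAM, 2 factors were called, against 1 under total-count scaling, 1 under each of the 3 FPKM settings (Tbx20, upward), 1 without the 3 libraries with Xist, and 9 under cardiomyocyte marker scaling (8 with markers that are not listed targets, 7 without the Xist libraries, 8 with only both groups fitted). It was 3, with Nkx2-5 falling too, in limma voom and with only both groups fitted. Under cardiomyocyte marker scaling, 11576 genes were called for IR against SHAM (11464, 10824 and 11402 in its 3 variants), against 7079 under TMM factors. For IR+Decursin against SHAM it called 7738 genes (7649, 7494 and 8000) against 4421, with 7 factors (7, 5 and 7) against 0. For IR+Decursin against IR, DESeq2 called 470 genes. Mef2d, called lower for IR against SHAM under TMM factors, had the other sign at 0.023 under total-count scaling, where it was not called. It was at 0.019, 0.020 and 0.019 in the 3 FPKM settings, also not called. Values called with the other sign came under cardiomyocyte marker scaling. They were Gata4 0.46, Gata6 0.50, Nkx2-5 0.33, Tbx5 0.50, Mef2a 0.58, Mef2c 0.32, Mef2d 0.38 and Hand2 0.41 for IR against SHAM. For IR+Decursin against SHAM they were Mef2a 0.34 and Mef2d 0.24. Total-count, FPKM and cardiomyocyte marker scaling move the median of all genes, by construction. Of 153 values per comparison outside the left-out libraries, 32, 16 and 37 had the other sign than the main one, in 8 factors each, most of them uncalled both times.

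On leaving out 1 library, 1 to 3 factors were called for IR against SHAM, with 6599 to 7246 genes; 0 to 976 genes for IR+Decursin against IR, above 0 without IR+Decursin 1 or 4; and 3461 to 5130 for IR+Decursin against SHAM. Same-numbered libraries did not all deviate together (correlations of -0.10 to 0.18 for IR and SHAM, -0.56 to 0.44 for IR+Decursin and IR, and -0.23 to 0.02 for IR+Decursin and SHAM, over 0.1 in 3, 2 and 0 of 6 pairs), so the numbers were not taken as pairs. With the replicate block, 3 factors fell for IR against SHAM, Nkx2-5 included (adjusted p = 0.021), with 6715 genes called; 0 genes were called for IR+Decursin against IR and 3873 for IR+Decursin against SHAM. Counts of Tbx5, 307 to 673 per library, were the lowest of the 9.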
